A study of Mus musculus with 9 samples.

Results

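The genotype effect of Tet1 loss in inguinal white adipose tissue (iWAT) was read over all 9 RNA-seq libraries of the series, 4 labelled KO and 5 labelled WT, with housing as a blocking term. Genotype and housing came from the names of the count columns. Each library came from 1 mouse. The KO mice were C57BL/6 with an adipose-specific deletion of Tet1 (Adi-Tet1KO, made with Fabp4-Cre), 2 of them kept at room temperature (RT) and 2 exposed to 4 °C for 4 h (cold). The WT mice were C57BL/6 with the floxed allele and no deletion, 2 kept at RT and 3 in cold. All were on chow diet, and the labels give no age for a mouse. Fabp4-Cre is known to act in some macrophages and other non-adipocyte cells as well as in fat cells. The labels describe flash-frozen whole tissue, whereas the design text speaks of fractionated adipocytes and of 3 mice in each group. For the KO mice 1781 and 1786 the housing in the sample title is the opposite of that in the column name. The column names were followed, also wherever libraries are compared within a housing. Calls lost under the housing of the titles or without both mice are given beside each gene.

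TET1 is a dioxygenase that oxidises 5-methylcytosine, mostly at CpG sites, and it also acts in repressor complexes with histone deacetylases. Inguinal fat holds white adipocytes that can take on a beige state, in which the uncoupling protein UCP1 lets mitochondria burn fatty acids for heat. That state draws on fatty acid uptake, the carnitine shuttle, beta-oxidation and brown-fat isoforms of the respiratory chain. Much of it is switched on by PPARalpha and PPARgamma with the coactivator PGC-1alpha.

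The 9 libraries held 47605902 to 56292251 counts and 16745 genes passed the filter on low counts. Pairs of libraries of the same genotype and housing correlated at 0.980 to 0.988 (Pearson, log2 CPM, across genes, which are not independent replicates). Levels are given in CPM, counts scaled to library size with TMM factors. The labelled tissue was checked with 16 adipocyte markers, all of which were measured. Their summed level was 18004 to 46972 CPM in KO and 35439 to 48425 CPM in WT. The lowest value, 18004 CPM, was that of KO mouse 1781, and the other 3 KO libraries lay at 31316 CPM or more. Markers of mammary and skin epithelium summed to 3643 to 5282 CPM in KO and 4608 to 5606 CPM in WT, and those of fibroblasts and progenitors to 10030.0 to 15311 CPM in KO and 11784 to 14690.0 CPM in WT. In bulk tissue, fewer cells of a type cannot be told apart from less RNA per cell. Xist, of the X-inactivation and Y-linked list, was at 409 to 875 CPM in KO and 305 to 707 CPM in WT. The Y-linked genes Ddx3y, Eif2s3y, Kdm5d, Usp9y, Uty and Zfy1 had 0 counts in every library.

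Tet1 itself (chromosome 10, 62804570 to 62908996, GRCm38 coordinates of the GENCODE annotation here and below) was not lower in the libraries labelled KO. It stood at 12.3 and 5.91 CPM at RT and 10.2 and 5.30 CPM in cold in KO mice, against 4.51 and 4.01 CPM at RT and 5.33, 3.87 and 3.98 CPM in cold in WT mice. KO mouse 1782 lay within the WT range in cold, and the highest values belonged to mice 1786 and 1781, whose housing labels conflict. The mean within-housing difference was 4.11 CPM (two-sided exact permutation test within housing, p = 0.0333, where the 60 arrangements allow no p below 0.0167). Without both of those mice it was 1.28 CPM (exact permutation p = 0.167, smallest possible 0.0833). Leaving out each library in turn gave exact permutation p-values of 0.0417 to 0.233, where the smallest possible was 0.0333 to 0.0556. Without WT mouse 1773, 1783 or 1812 this test could not give a p below 0.0556. In the fit of every gene, Tet1 had a log2 fold change of 0.95 with SE 0.26 and an adjusted p of 0.259 in edgeR's test, and of 0.0232 in DESeq2. Reads were counted over all exons, and which exons are floxed is not stated in the material read, so the deletion itself was not checked. Tet2 averaged 36.7 ± 2.45 CPM in KO and 32.3 ± 6.67 CPM in WT (SD, n = 4 and 5). Tet3 averaged 99.4 ± 16.3 CPM in KO and 87.3 ± 10.1 CPM in WT (SD, n = 4 and 5), and neither was called. All statements on KO below concern the libraries labelled KO.

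A gene was called when its p adjusted over all 16745 genes by the method of Benjamini and Hochberg was under 0.05 in edgeR's quasi-likelihood test and its fold change exceeded 1.5. Of the genes tested, 22 rose in KO (0.131%) and 2 fell (0.0119%). Without adjustment, p was under 0.05 for 1000 genes with a positive fold change (5.97%) and for 1104 with a negative one (6.59%). In each housing taken alone, every KO library lay above every WT library for 614 genes (3.67%) and below for 738 (4.41%), and all 24 called genes were among these under the column names. Over all 9 libraries regardless of housing the groups did not overlap for 20 of the 22 higher genes, the exceptions being Gk and Ppargc1a, and for both lower genes. The share over all genes was not counted for this wider comparison, and called genes were chosen by a test that favours separated groups. These counts of overlap therefore only describe the called genes. The 22 higher genes had a median log2 fold change of 1.72, and the smallest was 0.70. The called genes lay on 14 chromosomes, with 0 of the 24 on chromosome 10, which carries Tet1. The share of all genes tested that lie on chromosome 10 was not counted, so this only describes the calls.
The number of calls depended on single libraries, on the tool and on the housing followed. It was 11 to 31 higher and 0 to 12 lower when each library was left out in turn, 55 and 23 without both mice of conflicting housing, and 123 and 84 with DESeq2. With the housing of the titles 19 genes were higher and 16 lower, and 0 of those 16 were among the 2 lower genes named here. The 10 genes Myt1l, Cox7a1, Cpt1b, Gm44502, Ppp1r3b, Slc27a2, A530050N04Rik, Cidea, Fabp3 and Pank1 kept their call in all 19 alternative fits, those with each library left out included.

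**Figure D1:**
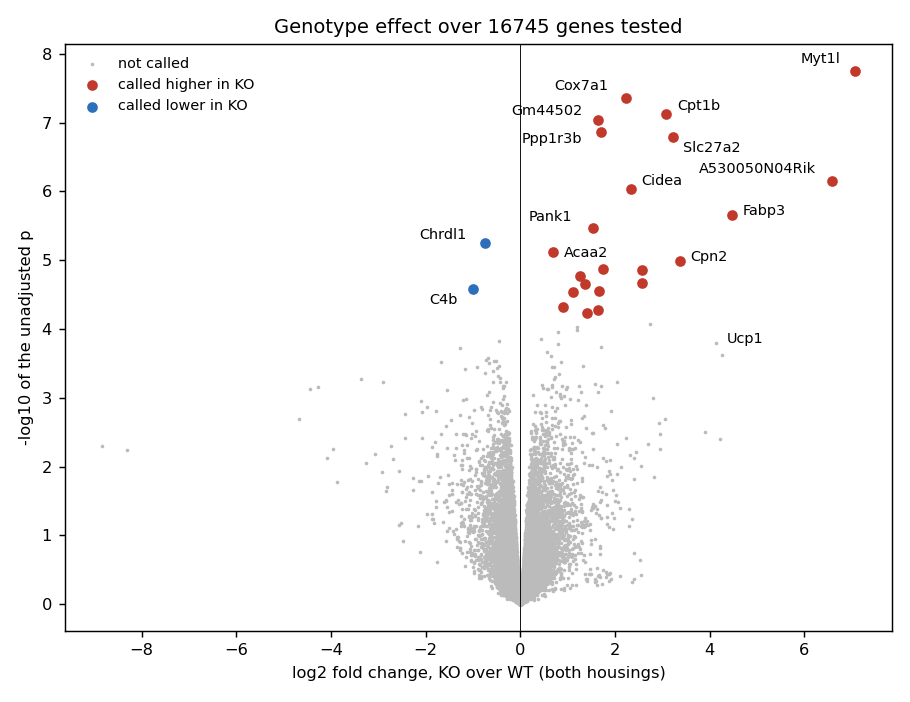
Each point is 1 of the 16745 genes tested, with the log2 fold change of KO over WT across both housings on the x axis and -log10 of the unadjusted p on the y axis. The 22 genes called higher in KO (red) include Myt1l at 7.07 and Acaa2 at 0.70, and the 2 called lower (blue) are Chrdl1 at -0.75 and C4b at -1.01. Ucp1, at 4.14, was not called.

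Promoters of called genes are shown because TET1 acts on CpG sites. RefSeq windows (GRCm38.p6, 250 bases before to 50 after a start, the window nearest to the GENCODE start) were at hand for 14 of the 22 higher genes, for 0 of the 2 lower genes and for 12774 of all 16745 genes tested. For Ppara, Slc27a2 and Apold1 the RefSeq start lay 793, 617 and 283 bases from the GENCODE start. All 250 bases before it were annotated as untranslated exon for Slc27a2 and for Apold1. Their windows are included in the counts below. The 14 windows held 4 to 42 CpG sites, with a median of 9.5, against a median of 19.0 over all genes. Observed over expected CpG exceeded 0.6 in 7 of the 14 windows and in 63.93% of all windows. The sequences below are the 250 bases before the start, 5′ to 3′, of a gene near-absent in WT with few CpG sites (Myt1l), a second of this kind (Cpn2), a coactivator gene (Ppargc1a) and the most CpG-dense window of the 14 (Phospho1). Capitals mark CpG sites.
Myt1l (chr12:29528134-29528383, plus strand): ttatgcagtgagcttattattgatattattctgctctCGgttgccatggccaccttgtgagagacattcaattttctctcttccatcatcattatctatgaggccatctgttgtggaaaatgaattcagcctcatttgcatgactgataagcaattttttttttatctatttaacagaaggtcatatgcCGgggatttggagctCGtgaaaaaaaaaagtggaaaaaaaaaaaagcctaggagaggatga
Cpn2 (chr16:30267533-30267782, minus strand): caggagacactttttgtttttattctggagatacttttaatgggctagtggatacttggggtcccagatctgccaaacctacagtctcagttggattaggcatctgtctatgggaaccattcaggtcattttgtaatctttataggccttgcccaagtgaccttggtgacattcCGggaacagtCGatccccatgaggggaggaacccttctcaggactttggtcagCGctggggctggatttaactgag
Ppargc1a (chr5:51567726-51567975, minus strand): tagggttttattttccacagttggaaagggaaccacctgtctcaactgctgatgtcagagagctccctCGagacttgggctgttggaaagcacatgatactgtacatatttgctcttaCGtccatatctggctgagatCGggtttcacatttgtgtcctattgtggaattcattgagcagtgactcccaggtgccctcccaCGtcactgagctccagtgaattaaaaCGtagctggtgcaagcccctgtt
Phospho1 (chr11:95824250-95824499, plus strand): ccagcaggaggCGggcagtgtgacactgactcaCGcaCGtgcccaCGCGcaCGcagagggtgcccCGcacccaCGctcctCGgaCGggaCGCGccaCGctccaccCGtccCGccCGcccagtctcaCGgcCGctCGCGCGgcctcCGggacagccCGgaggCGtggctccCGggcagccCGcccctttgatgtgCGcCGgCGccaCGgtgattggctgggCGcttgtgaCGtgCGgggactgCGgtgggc
The printed stretches of Myt1l and Cpn2 held 3 CpG sites each, that of Ppargc1a 5 and that of Phospho1 34. The nuclear receptor half-site AGGTCA occurred on either strand in 4 of the 14 windows (28.57%), against 12.67% of all windows. The cAMP response element half-site TGACG occurred on either strand in 6 (42.86%), against 29.11%. No methylation was measured in these libraries, and a match of letters is a description only.

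Slc27a2, Cpt1b and Fabp3, which act in fatty acid uptake, entry into mitochondria or binding, stood among the clearest increases. The class as a whole did not rise. Of 23 tested members of fatty acid uptake and activation, 12 log2 fold changes were positive and 11 negative (median 0.0023). Slc27a2 (chromosome 2, 126552407 to 126588243) makes an enzyme that activates very long-chain fatty acids and aids their uptake. It was at 6.32 and 9.38 CPM at RT and 25.4 and 33.3 CPM in cold in KO mice, against 1.31 and 1.28 CPM at RT and 2.66, 1.94 and 2.35 CPM in cold in WT mice. The increase was 3.22 on the log2 scale (SE 0.24, adjusted p = 0.000456). All 4 KO values exceeded all 5 WT values, and the cold KO values exceeded those at RT.
Cpt1b (chromosome 15, 89416405 to 89425863), the muscle-type enzyme of the carnitine shuttle into mitochondria, was at 51.9 and 81.9 CPM at RT and 91.2 and 98.3 CPM in cold in KO mice. In WT mice it was at 7.003 and 6.31 CPM at RT and 11.5, 9.39 and 17.7 CPM in cold. The log2 fold change was 3.08 (SE 0.21, adjusted p = 0.000388), and the groups lay far apart. Gm44502 is annotated over the whole of Cpt1b on the same strand (9459 shared bases, chromosome 15) and over most of Chkb, and it rose by 1.63 (SE 0.11, adjusted p = 0.000388), so its reads and those of Cpt1b may be split between them and each value is uncertain.
Fabp3 (chromosome 4, 130308595 to 130315463), the heart-type fatty acid binding protein, was at 8.398 and 4.28 CPM at RT and 16.4 and 17.8 CPM in cold in KO mice, against 0.262 and 0.256 CPM at RT and 0.489, 0.313 and 1.68 CPM in cold in WT mice. The 4 KO libraries held 2438 counts and the 5 WT libraries 150, a ratio of 20.02 after scaling (exact 95% interval 16.97 to 23.8, counting error only). The log2 fold change was 4.47 (SE 0.44, adjusted p = 0.00407). WT mouse 1812 stood above the other WT mice but below every KO mouse.

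Acaa2, Pank1 and Acot11, which act on acyl-CoA or coenzyme A, were also called higher. Acaa2 (chromosome 18, 74779197 to 74806208), the mitochondrial 3-ketoacyl-CoA thiolase that closes the oxidation cycle, was at 156 and 194 CPM at RT and 187 and 198 CPM in cold in KO mice, against 109 and 105 CPM at RT and 112, 124 and 125 CPM in cold in WT mice. The smallest of the called increases was this one, 0.70 on the log2 scale (SE 0.08, adjusted p = 0.0104), with an RT value of 0.72 and a cold value of 0.68. It lost its call without KO mouse 1782 and without either WT mouse at RT, at an adjusted p of up to 0.0553.
Pank1 (chromosome 19, 34806940 to 34879455), a pantothenate kinase that starts coenzyme A synthesis, was at 28.0 and 38.0 CPM at RT and 44.6 and 56.9 CPM in cold in KO mice. All 5 WT mice lay between 12.3 and 16.2 CPM, and the log2 fold change was 1.54 (SE 0.16, adjusted p = 0.00573). Acot11, a thioesterase that splits acyl-CoA and was first described in brown fat, spread from 16.6 to 60.2 CPM in KO and from 4.84 to 7.16 CPM in WT (log2 fold change 2.57, SE 0.32, adjusted p = 0.0156). Fam151a overlaps Acot11 on the other strand by 3738 bases, and its log2 fold change was also 2.57 (SE 0.33, adjusted p = 0.0209). Whether counting used strand is not stated in the material read, and without strand the reads in the shared bases cannot be told apart. Both lost their call in 6 of the 9 fits with a library left out.

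Among brown-fat genes of the respiratory chain and the lipid droplet, Cox7a1 and Cidea rose, each with all KO libraries above all WT libraries. Cox7a1 (chromosome 7, 30184144 to 30186078), the heart and brown-fat isoform of cytochrome oxidase subunit 7a, was at 12.4 and 15.3 CPM at RT and 16.6 and 16.3 CPM in cold in KO mice. It lay between 2.66 and 4.21 CPM in WT mice, an increase of 2.24 on the log2 scale (SE 0.14, adjusted p = 0.000363). Cidea (chromosome 18, 67343604 to 67367785), a lipid droplet protein of beige and brown adipocytes, was at 71.6 to 134 CPM in KO and 16.6 to 29.4 CPM in WT, an increase of 2.33 on the log2 scale (SE 0.21, adjusted p = 0.00192).
Ucp1 did not pass the threshold although its groups did not overlap. It stood at 261 and 623 CPM at RT and 1062 and 1483 CPM in cold in KO mice, against 14.5 and 3.15 CPM at RT and 168, 147 and 213 CPM in cold in WT mice. The log2 fold change was 4.14 (SE 0.69, adjusted p = 0.0857). It was called by limma-voom (log2 fold change 4.38, adjusted p = 0.043), by DESeq2 (4.175, adjusted p = 1.47e-06) and in the mean of both housings (4.25, adjusted p = 0.0128). Cox8b, the partner isoform of subunit 8, and Dio2, which makes active thyroid hormone, were chosen after their values were seen. Cox8b was at 69.5 to 86.3 CPM in KO and 20.3 to 41.7 CPM in WT (log2 fold change 1.20, adjusted p = 0.0593). Dio2 was at 54.1 to 487 CPM in KO and 10.9 to 179.7 CPM in WT (log2 fold change 1.71, adjusted p = 0.092). Elovl3, a fatty acid elongase of brown fat, had 1.01 and 3.59 CPM at RT and 14.6 and 14.9 CPM in cold in KO mice, against 0.936 and 1.85 CPM at RT and 3.46, 3.33 and 3.67 CPM in cold in WT mice (log2 fold change 1.52, adjusted p = 0.253).

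Regulators of this programme rose as well. Ppargc1a (chromosome 5, 51454250 to 51567726), which encodes PGC-1alpha, was at 18.2 and 41.6 CPM at RT and 80.8 and 125 CPM in cold in KO mice, against 9.79 and 7.97 CPM at RT and 37.5, 28.6 and 39.7 CPM in cold in WT mice. KO mice at RT overlapped WT mice in cold, while within each housing of the column names KO stood above WT (log2 fold change 1.63, SE 0.24, adjusted p = 0.0381). Ppara (chromosome 15, 85734983 to 85802819), the fatty acid-sensing nuclear receptor, was at 40.1 to 72.4 CPM in KO and 19.8 to 25.8 CPM in WT (log2 fold change 1.25, SE 0.16, adjusted p = 0.0178). Perm1, a muscle gene that acts with PGC-1 and oestrogen-related receptors, was at 5.03 to 10.1 CPM in KO and 2.07 to 3.12 CPM in WT (log2 fold change 1.42, SE 0.21, adjusted p = 0.0409). The call of Ppargc1a was lost in 6 of the 9 fits with a library left out, that of Ppara in 6 and that of Perm1 in 8. By its title mouse 1786 is a cold library, and its 18.2 CPM of Ppargc1a would lie below every WT mouse in cold. Under the titles the adjusted p was 0.338 for Ppargc1a and 0.0594 for Perm1, and without both conflicting mice it was 0.0644 for Perm1, so these calls were lost.
A530050N04Rik, a long non-coding RNA that RefSeq names Lncbate10 and that is known from brown fat, had 79, 68, 303 and 244 counts in the KO libraries. It had 2, 0, 1, 0 and 6 counts in the WT libraries, for a ratio of 95.0 after scaling (exact 95% interval 49.7 to 209, counting error only). The KO values split by housing, with 1.38 and 1.34 CPM at RT and 5.90 and 4.86 CPM in cold.

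Called genes of carbohydrate, glycerol and phospholipid metabolism also rose. Ppp1r3b (chromosome 8, 35375739 to 35388139), which brings protein phosphatase 1 to glycogen, was at 61.2 and 59.7 CPM at RT and 62.1 and 79.5 CPM in cold in KO mice, against 15.6 and 19.6 CPM at RT and 18.6, 24.2 and 26.0 CPM in cold in WT mice. The increase was 1.78 at RT and 1.63 in cold on the log2 scale (1.70 over both, SE 0.12, adjusted p = 0.000456). Gk (chromosome X, 85701937 to 85776819), the glycerol kinase that lets fat cells reuse glycerol, was at 26.2 and 52.2 CPM at RT and 121 and 182 CPM in cold in KO mice, against 14.8 and 13.5 CPM at RT and 40.8, 33.4 and 53.9 CPM in cold in WT mice. Its groups overlapped across housings but not within those of the column names (log2 fold change 1.67, SE 0.22, adjusted p = 0.0232).
Phospho1 (chromosome 11, 95824499 to 95832140), a phosphatase of phosphocholine and phosphoethanolamine, was at 48.3 and 61.9 CPM at RT and 113 and 104 CPM in cold in KO mice, while WT mice lay between 19.7 and 27.6 CPM (log2 fold change 1.74, SE 0.21, adjusted p = 0.0156). Abi3, an adaptor of actin regulation, overlaps Phospho1 on the other strand by 2067 bases and was at 56.4 to 118 CPM in KO and 28.3 to 38.7 CPM in WT (log2 fold change 1.37, SE 0.18, adjusted p = 0.0209), with the same limit for reads in the shared bases. Zfp652 also overlaps both of them. It is annotated over the whole of Phospho1 on the same strand (7642 shared bases), so there even strand would not tell shared reads apart. Gngt2 overlaps Abi3 by 5261 bases on the other strand. Dagla, which makes the endocannabinoid 2-arachidonoylglycerol, was at 17.6 to 37.7 CPM in KO and 10.8 to 13.4 CPM in WT (log2 fold change 1.12, SE 0.15, adjusted p = 0.0232). Gk, Phospho1, Abi3 and Dagla lost their calls in 5 to 7 of the 9 fits with a library left out. Under the titles Gk (adjusted p = 0.278) and Dagla (adjusted p = 0.106) also lost theirs, and the 26.2 CPM of Gk in mouse 1786 would then be a cold value below all WT values in cold.

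Other called genes fell outside these processes. Myt1l (chromosome 12, 29528384 to 29923213), a transcription factor of neurons, had 323, 369, 311 and 353 counts in the KO libraries and 2, 2, 2, 6 and 0 counts in the WT libraries. The ratio after scaling was 139 (exact 95% interval 79.4 to 270.0, counting error only). The fitted log2 fold change of 7.07 (SE 0.41, adjusted p = 0.000294) was the largest of the 24, and the KO values of 5.63 to 7.27 CPM hardly differed between RT and cold. Cpn2, the regulatory subunit of carboxypeptidase N, had 153, 145, 92 and 48 counts in KO and 5 to 14 counts in WT, a ratio of 11.5 (exact 95% interval 8.48 to 15.9, counting error only), and it lost its call without WT mouse 1788, 1773 or 1783. Apold1, an endothelial gene that responds quickly to stimuli, was at 153 to 202 CPM in KO and 60.7 to 122 CPM in WT (log2 fold change 0.90, SE 0.13, adjusted p = 0.0365), and lost its call in 7 of the 9 fits with a library left out, under the titles (adjusted p = 0.0595) and without both conflicting mice (adjusted p = 0.056).
Chrdl1 (chromosome X, 143285674 to 143394262), a secreted antagonist of bone morphogenetic proteins, was at 49.3 and 52.5 CPM at RT and 35.9 and 43.3 CPM in cold in KO mice, against 90.1 and 76.6 CPM at RT and 72.9, 68.8 and 63.7 CPM in cold in WT mice. The log2 fold change was -0.75 (SE 0.08, adjusted p = 0.0085) and the groups did not overlap. The call was lost without WT mouse 1788 and under the housing of the titles (adjusted p = 0.0938). C4b (chromosome 17, 34728380 to 34743882), complement component 4, was at 399 and 442 CPM at RT and 252 and 257 CPM in cold in KO mice, against 809 and 607 CPM at RT and 529, 633 and 615 CPM in cold in WT mice (log2 fold change -1.01, SE 0.13, adjusted p = 0.0232). C4a is a near-identical copy, so its reads and those of C4b could be exchanged or lost in counting. C4a, chosen after its values were seen, was at 1.77 to 3.69 CPM in KO and 3.90 to 5.64 CPM in WT (log2 fold change -0.92, adjusted p = 0.122). The call of C4b was lost under the titles (adjusted p = 0.147), without both mice of conflicting housing (adjusted p = 0.0799) and in 7 of the 9 fits with a library left out.

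**Figure D2:**
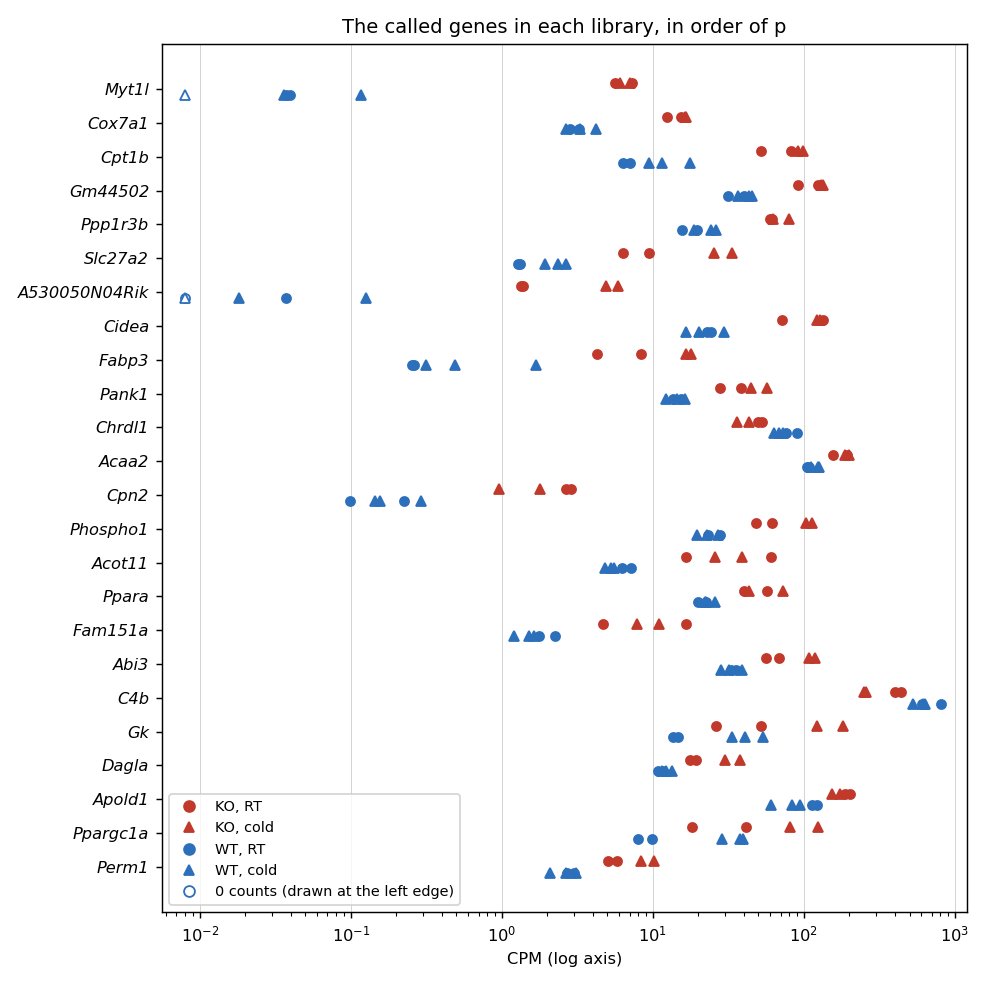
Each row is 1 of the 24 called genes in order of p, and each point is 1 library (KO red, WT blue, circles RT, triangles cold) at its CPM on a log axis. Within each housing of the column names the KO libraries stood on 1 side of the WT libraries, as for Cox7a1 with 12.4 to 16.6 CPM in KO and 2.66 to 4.21 CPM in WT. Open symbols at the left edge are libraries with 0 counts.

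The genotype effect was compared between the housings by an interaction term. No gene was called (0 of 16745 in edgeR's quasi-likelihood test at an adjusted p under 0.05, 0.0%), while 458 genes had an unadjusted p under 0.05 and DESeq2 called 9. Without KO mouse 1814, edgeR called 1 gene. Both KO effects were positive for all 22 higher genes, with a smallest log2 fold change of 0.71 at RT and 0.68 in cold, and 15 of the 22 had the larger effect in cold. Among the called genes Phospho1 had the lowest interaction p, with a log2 fold change of 1.12 at RT and 2.23 in cold (unadjusted p = 0.00148), followed by Abi3 with 0.86 and 1.78 (unadjusted p = 0.00232). With the housing of the sample titles the cold minus RT difference of both turned to -0.08 for Phospho1 and -0.12 for Abi3. Dagla had 0.71 at RT and 1.45 in cold (unadjusted p = 0.00482). Ucp1 ran the other way, with 5.65 at RT and 2.85 in cold (unadjusted p = 0.0106), since WT mice at RT were at 14.5 and 3.15 CPM and WT mice in cold at 147 CPM or more.
The lowest interaction p over all genes belonged to Slpi, a secreted protease inhibitor, which had a log2 fold change of -1.36 at RT and 0.15 in cold (unadjusted p = 0.000138). Atp7b, a copper transporter, was at 4.72 and 7.98 CPM in KO at RT and at 0.350 and 0.598 CPM in KO in cold, against 0.300 and 0.551 CPM at RT and 0.293 to 0.544 CPM in cold in WT mice (log2 fold change 3.90 at RT and 0.11 in cold, unadjusted p = 0.000329). DESeq2 called both.

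**Figure D3:**
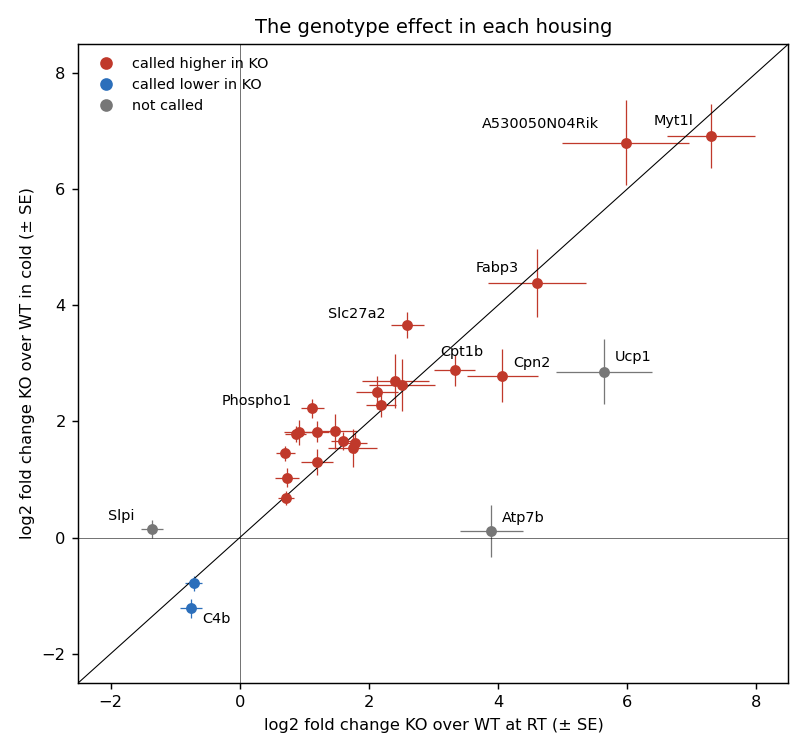
The log2 fold change of KO over WT at RT (x axis) and in cold (y axis) is plotted for the 24 called genes and for Ucp1, Atp7b and Slpi, with SE bars from edgeR, and the line marks equal effects. Of the 22 higher genes (red) 15 lie above the line, and Ucp1 lies below it at 5.65 and 2.85.

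Lists of genes place these changes among those of their pathways. At an unadjusted p under 0.05, 5.97% of all genes tested were higher and 6.59% lower, the shares to set beside each list's counts. Small medians depended on single libraries: leaving out each library in turn turned the sign of the median for 16 of 37 lists. The thermogenic programme had 29 members tested, of which 8 were called higher and 0 lower, namely Ppargc1a, Cidea, Cox7a1, Ppara, Fabp3, Gk, Acot11 and Pank1. The paper's own list of genes raised in KO at both RT and cold, taken from RNA-seq of this series, holds all 8. The thermogenic list was drawn up with such results known. Its counts, median and sums therefore only describe it and are no independent support. At unadjusted p under 0.05 it had 20 higher members and 0 lower. The list's median log2 fold change was 1.05 (0.87 at RT and 1.23 in cold), against 0.00 over all genes tested. Its summed level was 1886 and 2727 CPM at RT and 3102 and 4029 CPM in cold in KO mice, against 1239 and 1306 CPM at RT and 1217, 1187 and 1384 CPM in cold in WT mice. Each KO library exceeded each WT library.
Fatty acid uptake and activation had 2 of 23 called higher, Slc27a2 and Fabp3, with 4 higher and 1 lower at an unadjusted p under 0.05 and a median of 0.0023. The enzymes of mitochondrial and peroxisomal fatty acid oxidation had 2 of 43 members called higher, Cpt1b and Acaa2, 9 higher and 0 lower at an unadjusted p under 0.05, and a median of 0.14 (-0.02 without KO mouse 1782). Of PPAR targets, 2 of 30 were called, Cpt1b and Cidea, with 10 higher and 2 lower at an unadjusted p under 0.05 and a median of 0.17 (-0.04 without KO mouse 1782). The tricarboxylic acid cycle and pyruvate oxidation had 0 of 31 called, while 29 of 31 log2 fold changes were positive, 16 members were higher and 0 lower at an unadjusted p under 0.05, and the median was 0.37 (0.21 without KO mouse 1782). Its member of lowest p was Sucla2, a subunit of succinyl-CoA synthetase, at 164 to 256 CPM in KO and 123 to 152 CPM in WT (log2 fold change 0.66, adjusted p = 0.156).
Nuclear-encoded oxidative phosphorylation had 1 of 74 called, Cox7a1, and a median of 0.11 (-0.01 without KO mouse 1782). At an unadjusted p under 0.05, 6 were higher, a share near the 5.97% over all genes, and 1 was lower. Glycogen metabolism had 1 of 28 called, Ppp1r3b, with 8 higher and 1 lower at that level and a median of 0.14 (0.05 without KO mouse 1782). De novo lipogenesis had 0 of 22 called, 7 higher and 0 lower at that level, and a median of 0.47 (0.31 without WT mouse 1773). Its lowest p was that of Fads2, a desaturase, at 28.3 to 63.8 CPM in KO and 22.7 to 39.0 CPM in WT (adjusted p = 0.259). Glycolysis and glucose uptake had 0 of 32 called, 7 higher and 1 lower at that level and a median of 0.15, with Ldhb, a lactate dehydrogenase subunit, at a log2 fold change of 0.71 (adjusted p = 0.122). Triglyceride and glycerol metabolism, lipolysis, coenzyme A metabolism and phospholipid head groups had 1 called member each (Gk, Dagla, Pank1 and Phospho1), with medians between -0.002 and 0.13. DNA methylation and demethylation had 0 of 21 called and a median of 0.09, and proliferation had 0 of 26 called, with 0 members at an unadjusted p under 0.05.
The core circadian clock and its outputs had 0 of 19 called, 9 higher and 1 lower at an unadjusted p under 0.05, and a median of 0.27 (0.18 without KO mouse 1786). Ciart, a repressor of the clock, was at 1.39 to 11.0 CPM in KO and 0.846 to 6.05 CPM in WT (log2 fold change 0.83, adjusted p = 0.228). Immediate early and heat shock genes had 0 of 32 called and a median of 0.06, with the orphan receptor Nr4a3 of lowest p at 115 to 184 CPM in KO and 73.3 to 130 CPM in WT (adjusted p = 0.203). The TET1 and HDAC1 co-repressor complexes had 0 of 30 called and a median of 0.01. At an unadjusted p under 0.05, 2 were higher, a share near that over all genes, and 0 were lower. Hdac11, a class IV histone deacetylase, had the lowest p (log2 fold change 0.43, adjusted p = 0.306).

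The complement, interferon, matrix and macrophage lists had negative medians, and so did other immune cell lists. The B and plasma cell list, with 15 members tested, had a median of -0.49 (-0.0008 without WT mouse 1788). At an unadjusted p under 0.05, 1 of its members was lower and 0 higher. The neutrophil and mast cell list, with 14 tested, had -0.42 (-0.28 without KO mouse 1786), with 2 lower and 0 higher at that level. The dendritic cell and MHC class II list, with 18 members tested, had a median of 0.02, and the T and NK cell list, with 20, had -0.07, each with 0 members at an unadjusted p under 0.05. The complement cascade had 1 of 27 called lower, C4b, 14 lower and 2 higher (Hc and Masp2) at an unadjusted p under 0.05 and a median of -0.37. Interferon-stimulated genes had 0 of 39 called, 9 lower and 3 higher at that level and a median of -0.18 (-0.09 without WT mouse 1788). The lowest p was that of Bst2, tetherin, which lay at 47.3 to 61.8 CPM in KO and 66.0 to 98.0 CPM in WT (log2 fold change -0.58, adjusted p = 0.156). Collagens and matrix proteins had 0 of 39 called, 6 lower and 0 higher at that level and a median of -0.14 (-0.07 without KO mouse 1782). Col6a3, a chain of type VI collagen, was at 243 to 442 CPM in KO and 442 to 783 CPM in WT (log2 fold change -0.68, adjusted p = 0.283).
Of 24 macrophage markers, all tested, 0 were called, 13 were lower and 0 higher at an unadjusted p under 0.05, and the list's median was -0.72 over both housings, -1.05 at RT and -0.37 in cold. Without KO mouse 1786 the median was -0.47 and without KO mouse 1781 it was -1.05. Their summed level was 663 and 913 CPM at RT and 1335 and 836 CPM in cold in KO mice, against 1592 and 1204 CPM at RT and 1314, 1249 and 1012 CPM in cold in WT mice. KO mouse 1781 lay within the WT range and the other KO mice below it. Siglec1, a sialic acid receptor of tissue macrophages, was at 22.1 to 43.7 CPM in KO and 42.5 to 99.0 CPM in WT (log2 fold change -1.03, adjusted p = 0.256). C4b fell, and the medians of the complement and macrophage lists were both negative. The part of macrophages in the value of C4b was not tested.
Skeletal muscle markers are given beside the muscle-type genes named above. Of 19 markers, 0 were called, 10 were higher and 1 lower at an unadjusted p under 0.05, 13 log2 fold changes were positive and 6 negative, and the median was 0.68. Their summed level was 72.2 to 128 CPM in KO and 70.7 to 127 CPM in WT, so the sums overlapped. Acta1, the skeletal muscle actin and the marker of highest level, was at 12.5 to 51.6 CPM in KO and 17.2 to 63.8 CPM in WT (log2 fold change -0.29, adjusted p = 0.78). Actn3, an actinin of fast fibres, was at 2.37 to 2.96 CPM in KO and 0.826 to 1.51 CPM in WT (log2 fold change 1.19, adjusted p = 0.0652). The part of muscle fibres in the values of Cox7a1, Cpt1b, Fabp3 and Perm1 was not tested.

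**Figure D4:**
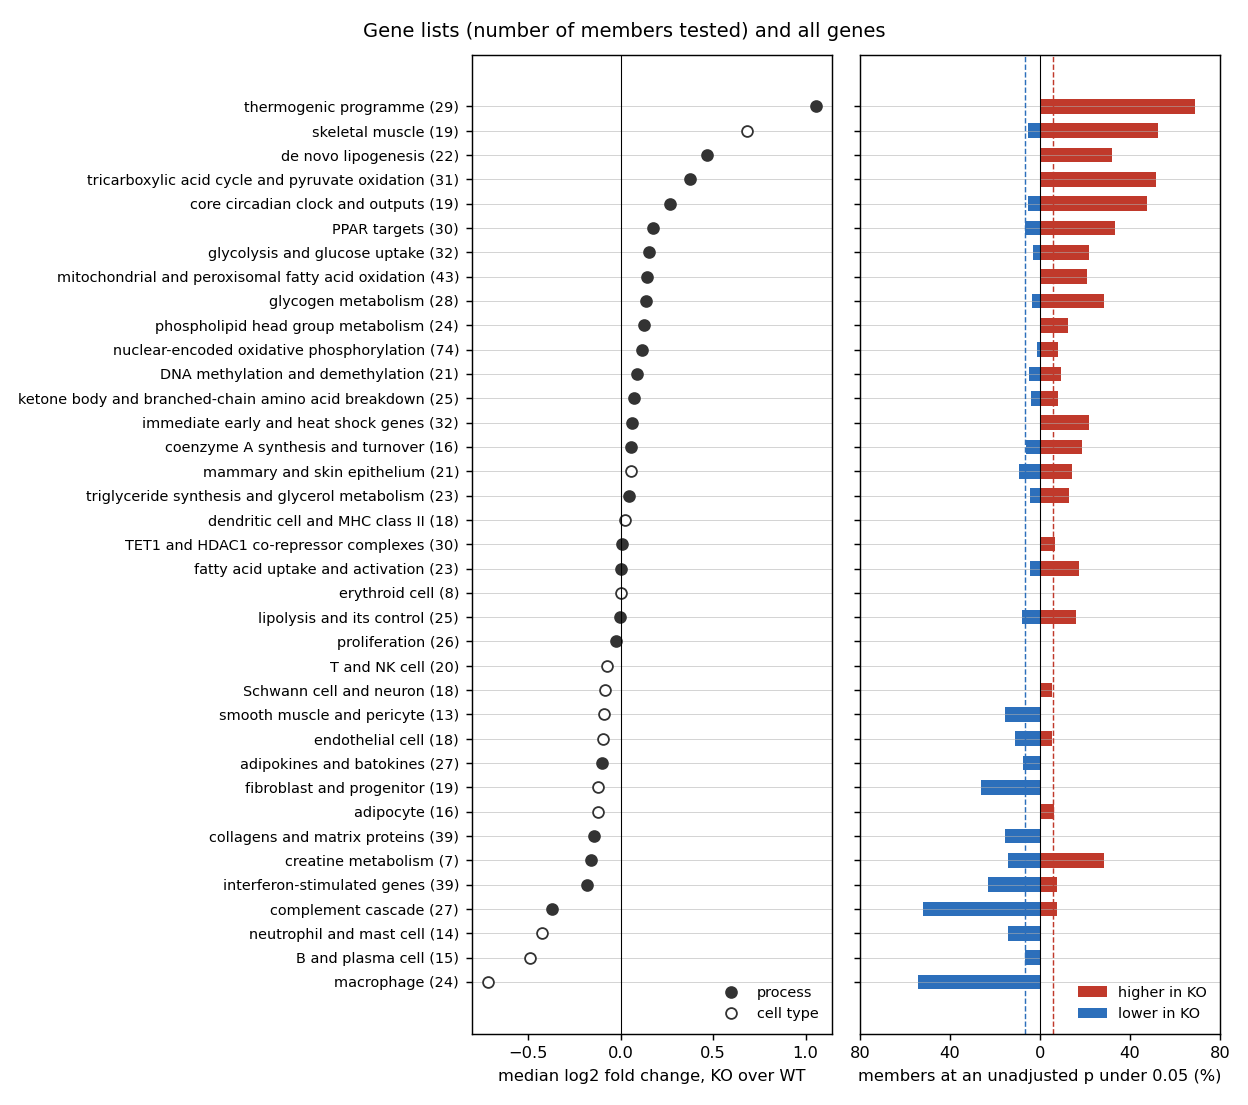
Each row is a gene list with its number of members tested, ordered by the median log2 fold change of KO over WT (left panel, filled for processes, open for cell types). Bars (right panel) give the share of members higher (red) or lower (blue) in KO at an unadjusted p under 0.05, beside dashed lines for all genes (5.97% and 6.59%). The thermogenic programme stands at the top with a median of 1.05 and macrophage markers at the bottom with -0.72. The lists were chosen with earlier results of these data known.

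**Figure D5:**
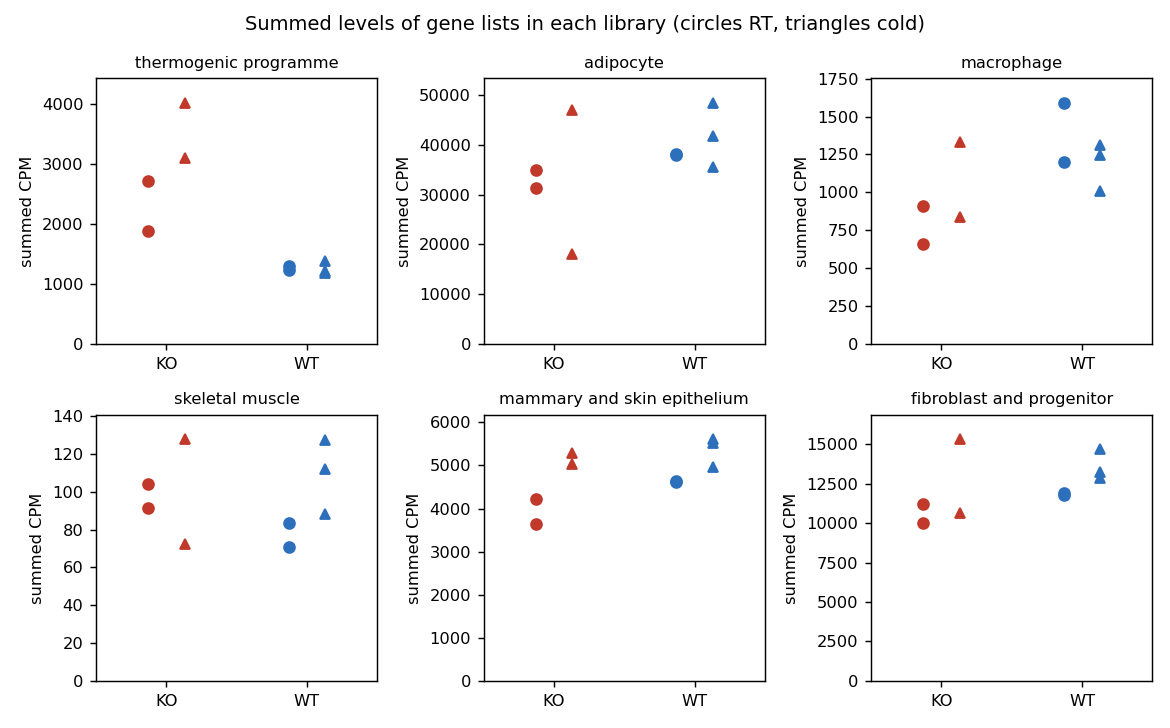
Points are summed CPM of 6 gene lists in each library (KO red on the left, WT blue on the right, circles RT, triangles cold), on axes that start at 0. The thermogenic programme lay between 1886 and 4029 CPM in KO and between 1187 and 1384 CPM in WT, while the ranges of the 5 cell type lists overlapped. The thermogenic list was drawn up with earlier results of these data known.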

How the data were processed

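RNA-seq was measured in iWAT of 9 mice, 1 library each, and grouped by genotype (4 KO, 5 WT) and housing as the count columns name them. The authors aligned BGISEQ reads to mm10 with STAR, kept reads that mapped to 1 place, removed mitochondrial reads and deposited raw counts per gene from featureCounts. Tool versions, the gene annotation and strandedness were not given in the sources used here. RPKM values, also deposited by the authors, were left aside. There were 24539 genes, 4210 of them at 0 in every library, with totals of 47605902 to 56292251 counts per library, and precision is limited by the number of mice.

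Counts were fitted with edgeR 4.0.16 in R 4.3.3 (filterByExpr over genotype and housing, TMM, robust glmQLFit and glmQLFTest, housing and genotype as terms). Calls needed an adjusted p (Benjamini-Hochberg) under 0.05 and a fold above 1.5. An approximate SE was taken as the size of the log2 fold change over the root of F. The Tet1 level was also tested with an exact permutation test within housing. Alternatives were RLE factors, 2 other filters, DESeq2 1.42.0, limma-voom (limma 3.58.1), no robust estimation, no housing term, the mean of both housings, the housing of the titles, omission of both conflicting mice, omission of each library, and no fold threshold. On simulated data of 16745 genes the test recovered 70 of 100 genes changed 2-fold and 91 of 100 changed 4-fold, with 0 calls where none changed and 7 false calls where 200 did. The simulation drew genes independently, without a housing effect or shifts shared within a library, so these values hold for such data only.

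The comparison and the 38 gene lists were chosen with earlier results of these data known. The rule for named genes took Tet1 to Tet3, Ucp1, Ppargc1a, Cidea and Elovl3, the called genes, members of lists by lowest p, and genes of lowest interaction p. Not every gene that this rule selects is described. GENCODE vM21 on GRCm38 (mm10) gave positions for 23832 genes and RefSeq for 625. Genes outside this rule are marked as chosen after their values were seen. The figures were drawn with matplotlib.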

Additional observations from a re-analysis of the deposited data

Results flagged for a closer look

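Within a genotype, 4 values of genes named above stood further from the nearest other library than Dixon's 95% critical value allows, out of 90 groups tested, and chance alone gives about 1 in 20. Ppp1r3b was at 79.5 CPM in KO mouse 1782, the next highest KO library being at 62.1 CPM. Bst2 was at 61.8 CPM in KO mouse 1814, with the next highest at 49.7 CPM. In WT mouse 1812, Fabp3 was at 1.68 CPM, with the next highest WT library at 0.489 CPM, and Sucla2 was at 152 CPM, with the next highest at 131 CPM. The groups tested pooled mice of both housings.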

How the results depend on the processing

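The 22 higher and 2 lower genes became 123 and 84 with DESeq2, and 55 and 23 without both mice of conflicting housing, which leaves 2 KO libraries. With the housing of the sample titles 16 genes were lower, none of them Chrdl1 or C4b, which both lost their call, and 0 were lower without a housing term. Leaving out each library in turn gave 11 to 31 higher and 0 to 12 lower genes. DESeq2 called 9 genes for the difference between housings, and fits without 1 library called 0 to 1. The Tet1 difference was 2.50 to 5.71 CPM without each library and 1.28 CPM without both conflicting mice. List medians turned sign for 16 of 37 lists when 1 library was left out. Of the 24 called genes, 0 turned sign in 456 fits. Tet3 turned to -0.0126 without both conflicting mice, and the cold minus RT difference turned to -0.07995 for Phospho1 and -0.12 for Abi3 under the titles. The cause of these changes was not tested. No paired analysis was possible because no mouse number occurs in both genotypes. With 2 or 3 mice in each genotype and housing, p-values measure the spread between these mice only.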

Other observations

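The genes Upk3b, Wt1 and Tcf21, chosen after their values were seen, were not called and were at or near 0 counts in every KO library. How many other genes share this pattern was not counted. Upk3b, a uroplakin known from mesothelium, had 0 counts in all 4 KO libraries and 16, 65, 162, 66 and 1 counts in the WT libraries. Taken over each genotype its ratio of KO over WT was 0 (exact 95% interval 0 to 0.0147, counting error only). Wt1, a transcription factor of mesothelium and visceral fat, had 0 counts in all 4 KO libraries and 26, 56, 94, 24 and 0 counts in the WT libraries. Its ratio of KO over WT was 0 (exact 95% interval 0 to 0.0229, counting error only). Tcf21, known from visceral preadipocytes, had 2, 0, 0 and 6 counts in KO and 12, 137, 64, 50 and 10 counts in WT, a ratio of KO over WT of 0.0361 (exact 95% interval 0.0154 to 0.0721, counting error only). WT mouse 1812 had the fewest counts of all 3 genes among the WT libraries. They had adjusted p of 0.259 (Upk3b), 0.26 (Wt1) and 0.225 (Tcf21) in edgeR's quasi-likelihood test. Whether traces of other tissue lie behind these counts was not tested.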
